A study of Rattus norvegicus with 196 samples.

Results

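The nucleus accumbens core (NAcC) of rats given the antidepressant fluoxetine (FT) was compared with the NAcC of control rats (Sham). The members are the samples labelled as NAcC, which came to 8 of the 196 samples of the series, 4 FT and 4 Sham, each with the replicate numbers 1, 3, 4 and 5. All animals were male Long-Evans rats labelled as 2 months old. In the study's methods this is about the age at which they were put into the groups, before treatment. FT rats had taken fluoxetine at 18 mg/kg per day in their drinking water for 6 weeks, whereas Sham rats drank water without the drug. Each sample was bulk RNA from tissue punches pooled over 10 of the 40 animals of its group, so the spread between samples is one between pools and not between animals. The FT and the Sham pool of the same number were processed in parallel and are called a pair here.

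The NAcC is the part of the ventral striatum in which cortical, thalamic and amygdalar inputs meet dopamine from the midbrain. Most of its neurons are GABAergic medium spiny neurons, which carry either dopamine D1 or D2 receptors, and it is crossed by myelinated fibre bundles whose sheaths are made by oligodendrocytes. Fluoxetine blocks the serotonin transporter, and the raphe nuclei supply the accumbens with serotonin. The neighbouring nucleus accumbens shell (NAcSh), sampled in the same way, was used to see where the core differed from tissue next to it.

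The values are numbers of reads counted per Ensembl transcript. Between 3798631 and 30025135 reads were counted on transcripts per NAcC library. Only part of the transcripts have a gene symbol here, namely the 1845 that the study lists as changed in 2 or more of its regions, so that every symbol-bearing list below was in that sense chosen on these samples and is not independent evidence of a change. The composition of the libraries differed between pairs. The 50 most counted transcripts took 60.0% of the counts in Sham 1, 77.8% in Sham 3 and 62.4% in FT 3, against 27.6% to 33.2% in the other 5 libraries. One transcript without a symbol, ENSRNOT00000069133, took 33.4% of Sham 1 and 9.64% of FT 1, 45.1% of Sham 3 and 24.1% of FT 3, and 5.80% to 8.47% in pairs 4 and 5. Reads that fell on no annotated feature made up 26.5%, 43.8%, 48.6% and 48.2% of the reads listed in Sham 1, 3, 4 and 5 and 21.9%, 38.7%, 46.4% and 40.2% in FT. This share was lower in FT in each of the 4 pairs, and its part in the results below was not tested. The log2 ratios of FT to Sham over the 13120 transcripts tested had an SD of 1.04 in pair 1, 1.11 in pair 3, 0.79 in pair 4 and 0.76 in pair 5. Across transcripts, these ratios correlated between pairs 1 and 3 (r = 0.49), 4 and 5 (r = 0.31), 1 and 4 (r = 0.29) and 3 and 4 (r = 0.22). By contrast, r was 0.01 between pairs 1 and 5 and 0.01 between pairs 3 and 5. These correlations are descriptions across transcripts, which are not independent replicates.

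The label of the tissue was checked on markers of medium spiny neurons. In Sham, Dgkb had its highest median of the 25 regions in NAcC, Ppp1r1b (which encodes DARPP-32, a target of dopamine signalling) ranked 2, and the D2 receptor gene DRD2, the adenosine receptor gene Adora2a and the enkephalin precursor gene PENK each ranked 3. Rasd2, a striatal small G protein gene, ranked 4 and the sodium channel gene Scn4b ranked 6. The highest median lay in NAcSh for Ppp1r1b and Adora2a, in the samples labelled BLA (basolateral amygdala) for DRD2, PENK and Rasd2, and in those labelled Nts for Scn4b, so these markers were high in NAcC but not particular to it. The peptide genes Avp, Oxt and Hcrt, markers of hypothalamic neurons, had Sham medians of 0.0167, 0.0167 and 0.0542 CPM (counts scaled to the size of the library) in NAcC. These medians and ranks over regions were scaled to total counts alone and were not corrected for the composition of the libraries.

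The first question was which transcripts differed between FT and Sham in NAcC. After FT, 8 transcripts with a symbol were higher, among them Myrf, Gsn and Npr1, and 7 were lower, among them Gabrb2, Lrrtm4 and Napb. In all, edgeR's quasi-likelihood test with the replicate pairs as a block called 30 of 13120 transcripts (0.229%), where a call needed a p of 0.1 or less after Benjamini-Hochberg adjustment and a log2 fold change beyond 0.32 in either direction. Of these, 10 were higher (0.0762%) and 20 lower (0.152%), and 15 of the 30 had a symbol. All 30 moved the same way in 4 of 4 pairs. DESeq2 with the same block called 924 transcripts, 520 higher and 404 lower, and these included all 30. In a single run of simulated counts, drawn from edgeR's own fit with 200 transcripts changed, DESeq2 called 116 changed and 34 unchanged transcripts, and edgeR 100 and 9. The share of unchanged transcripts among the calls was above the threshold of 0.1 in DESeq2 and under it in edgeR. Because the setting was taken from edgeR, the run cannot rank the tools. The calls made by DESeq2 alone are held as less firm because edgeR did not make them. Of the 13120, DESeq2 called 520 (3.96%) higher and 403 (3.07%) lower. The number depended on single pairs. It was 80 without pair 1, 19 without pair 3, 0 without pair 4 and 7 without pair 5 in edgeR, with 1292 transcripts at an unadjusted p under 0.05 without pair 4, where DESeq2 called 271. Without the block no transcript was called by edgeR or by DESeq2, with 386 and 590 transcripts at an unadjusted p under 0.05.

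**Figure D1:**
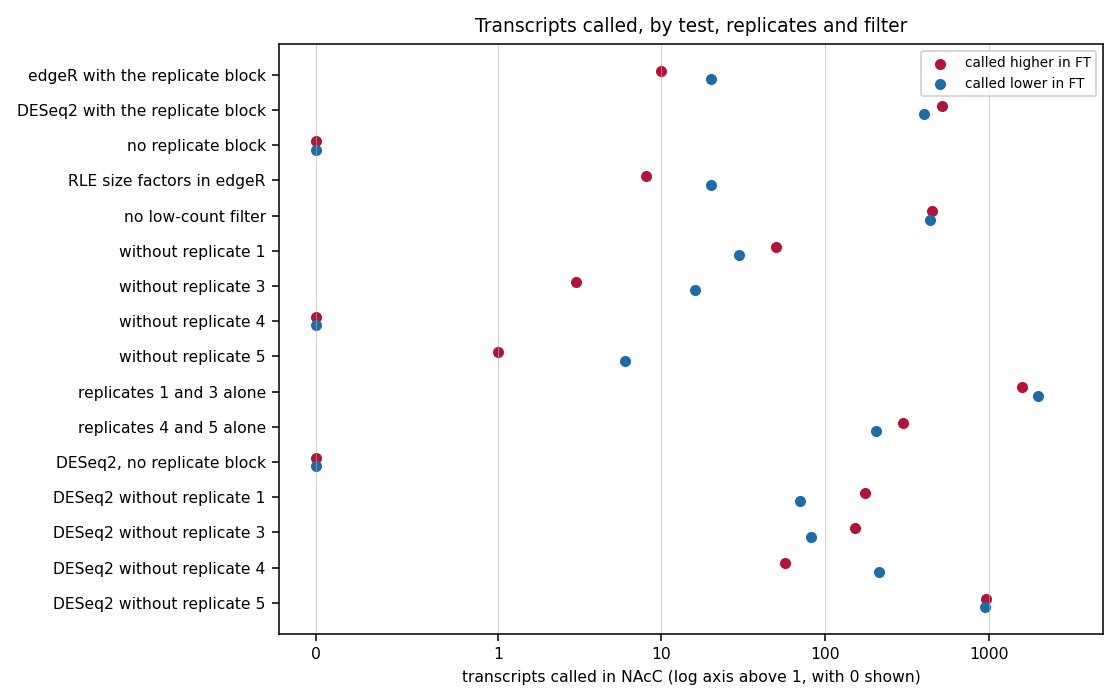
Number of transcripts called higher (red) and lower (blue) in FT than in Sham in NAcC under each test, set of replicates and filter; the x axis is logarithmic above 1 and also shows 0. The top line is the test reported in the text with 10 higher and 20 lower, and the counts run from 0 without the block or without replicate 4 to 1590 higher and 2006 lower with replicates 1 and 3 alone.

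Among the transcripts called higher, Myrf and Gsn belong to oligodendrocytes. Myrf encodes the transcription factor that turns on myelin genes. It was at 40.5, 44.0, 19.8 and 51.8 CPM in Sham 1, 3, 4 and 5 and at 95.7, 87.0, 81.8 and 151 CPM in FT 1, 3, 4 and 5. Every FT pool lay above every Sham pool, and the log2 fold change was 1.46 ± 0.25 (SE, n = 4 pairs, adjusted p = 0.0761 with edgeR). Gsn encodes gelsolin, which severs actin filaments. It was at 97.6, 115, 25.7 and 28.5 CPM in Sham and at 174, 254, 109 and 119 CPM in FT, in the same order of replicates. The groups overlapped, since FT 4 lay below Sham 3, but FT was higher within each pair (log2 fold change 1.53 ± 0.29, adjusted p = 0.0947 with edgeR). In bulk tissue, fewer or more cells of a type cannot be told apart from less or more RNA per cell.

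Npr1, the receptor of natriuretic peptides that makes cyclic GMP, was at 16.2, 7.88, 5.49 and 6.28 CPM in Sham and at 31.0, 25.0, 16.1 and 20.7 CPM in FT. Only FT 4 lay below the highest Sham pool, by a small margin. Its log2 fold change was 1.45 ± 0.28 (adjusted p = 0.0947 with edgeR). The other 5 higher transcripts with a symbol were Ppp4c, the catalytic subunit of protein phosphatase 4 (1.59 ± 0.30 on the log2 scale), Tmem54, a membrane protein (1.51 ± 0.26), Arl2, a small GTPase of tubulin folding (1.48 ± 0.26), Ddah2, a member of the dimethylargininase family (1.37 ± 0.25), and Dnajb2, a co-chaperone of the Hsp70 system (1.28 ± 0.23), with edgeR adjusted p of 0.0761 to 0.0942. All 5 overlapped between groups, since the pairs started from different levels. Arl2, for instance, was at 74.5, 106, 10.6 and 60.4 CPM in Sham and at 259, 250.5, 38.0 and 122 CPM in FT.

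Among the transcripts called lower, Gabrb2 encodes the beta 2 subunit of the GABA-A receptor, the chloride channel through which GABA inhibits neurons. It was at 2.83, 3.94, 14.7 and 11.1 CPM in Sham and at 0.743, 1.28, 3.89 and 1.90 CPM in FT. FT was lower within each pair (log2 fold change -2.06 ± 0.37, adjusted p = 0.0761 with edgeR), while the groups overlapped because pairs 1 and 3 were low in both. Few reads lay behind the low pairs, with 61 reads in Sham 1, 12 in FT 1, 6 in Sham 3 and 5 in FT 3, against 273, 35, 204 and 33 reads in Sham 4, FT 4, Sham 5 and FT 5.

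Napb encodes beta-SNAP, which helps to take apart SNARE complexes after vesicle fusion. It was at 9.19, 22.3, 38.8 and 45.2 CPM in Sham and at 2.66, 11.5, 10.4 and 7.77 CPM in FT (log2 fold change -1.83 ± 0.31, adjusted p = 0.0650 with edgeR). Sham 1 lay below 2 of the FT pools, and every pair fell. Lrrtm4, a postsynaptic adhesion protein of excitatory synapses, had a log2 fold change of -2.02 ± 0.36 (adjusted p = 0.0761 with edgeR), and most of its reads lay in pairs 4 and 5. It went from 33.5 to 6.33 CPM in pair 4 and from 30.4 to 6.62 CPM in pair 5, but had only 12 reads in Sham 1, 4 in FT 1, 3 in Sham 3 and 3 in FT 3.

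Of the 4 remaining lower transcripts, Plcxd3, a phospholipase C-like protein, was at 87.9, 46.6, 118 and 103 CPM in Sham and at 34.4, 23.2, 40.3 and 32.1 CPM in FT (log2 fold change -1.41 ± 0.23, adjusted p = 0.0650 with edgeR). Gpr22, an orphan receptor, was at 30.2 to 41.0 CPM in Sham and at 9.44 to 17.2 CPM in FT (-1.33 ± 0.24). Myo9a, an unconventional myosin, was at 55.8 to 103 CPM in Sham and at 27.6 to 44.9 CPM in FT (-1.22 ± 0.23). In these 3 transcripts every FT pool lay below every Sham pool. Opcml, a cell adhesion molecule of the IgLON family, fell in each pair (-1.251 ± 0.23), and its groups overlapped, since FT 4 at 52.0 CPM was above Sham 1 and Sham 3 at 50.7 and 46.6 CPM. Over all 30 called transcripts, 13 had groups that did not overlap, where 1.03% of the transcripts tested had every FT pool above every Sham pool and 1.52% the reverse (1.76% and 2.09% of the transcripts with a symbol).

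**Figure D2:**
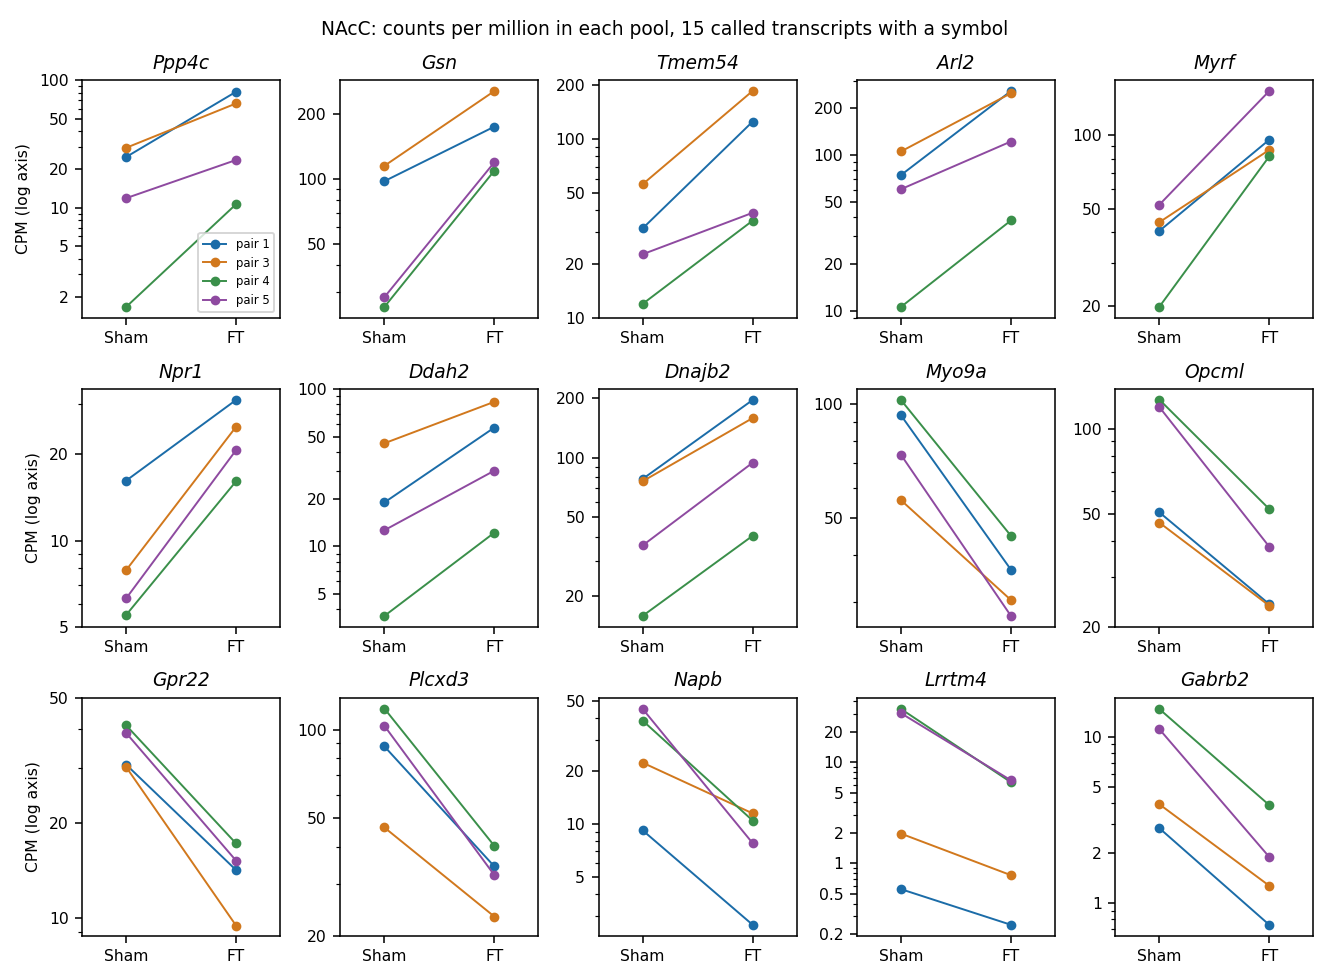
CPM in the Sham and FT pool of each pair (coloured lines) for the 15 called transcripts with a symbol in NAcC, on log axes that differ between panels. All lines rise in the 8 panels from Ppp4c to Dnajb2 and fall in the 7 from Myo9a to Gabrb2, while the pairs start from different levels.

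The start regions of 6 of these genes are shown as examples, 3 called higher and 3 lower, and they do not stand for all called genes. They are the 250 bases before the RefSeq gene start, from build GRCr8, given 5′ to 3′ on the strand of the gene; counts were made on another build. Of the 15 called genes, 12 had an entry. Capitals mark matches on either strand to any of 3 motifs, of which overlapping matches were merged in the capitals. One is the GC box, spelled GGGCGG. Another is the core of the cyclic AMP response element, spelled TGACG. The last is the TATA box, spelled TATAAA. The first 3 genes were higher and the last 3 lower in FT.
Gsn: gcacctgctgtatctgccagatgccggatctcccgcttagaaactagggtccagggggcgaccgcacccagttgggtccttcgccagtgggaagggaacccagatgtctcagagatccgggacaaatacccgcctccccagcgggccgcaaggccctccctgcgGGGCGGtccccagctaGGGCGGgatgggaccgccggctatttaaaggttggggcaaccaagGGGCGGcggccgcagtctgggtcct
Dnajb2: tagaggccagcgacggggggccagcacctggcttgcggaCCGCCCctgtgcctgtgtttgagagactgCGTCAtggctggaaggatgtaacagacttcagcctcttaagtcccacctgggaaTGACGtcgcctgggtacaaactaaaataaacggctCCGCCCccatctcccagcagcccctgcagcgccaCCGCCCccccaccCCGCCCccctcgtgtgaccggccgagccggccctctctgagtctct
Ppp4c: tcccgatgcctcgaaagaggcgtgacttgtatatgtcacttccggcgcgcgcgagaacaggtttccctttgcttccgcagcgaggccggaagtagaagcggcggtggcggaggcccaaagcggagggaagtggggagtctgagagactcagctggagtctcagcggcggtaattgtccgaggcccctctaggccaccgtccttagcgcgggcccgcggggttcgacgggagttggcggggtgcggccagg
Myo9a: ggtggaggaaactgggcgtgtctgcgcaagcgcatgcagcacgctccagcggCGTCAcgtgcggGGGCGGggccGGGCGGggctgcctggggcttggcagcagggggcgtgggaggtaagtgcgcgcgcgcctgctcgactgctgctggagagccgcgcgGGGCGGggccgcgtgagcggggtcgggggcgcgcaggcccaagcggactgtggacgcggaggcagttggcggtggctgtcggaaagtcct
Gabrb2: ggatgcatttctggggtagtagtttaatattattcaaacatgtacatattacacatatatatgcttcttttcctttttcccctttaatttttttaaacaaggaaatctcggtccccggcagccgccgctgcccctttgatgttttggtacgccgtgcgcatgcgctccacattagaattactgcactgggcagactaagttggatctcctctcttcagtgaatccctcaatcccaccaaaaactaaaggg
Lrrtm4: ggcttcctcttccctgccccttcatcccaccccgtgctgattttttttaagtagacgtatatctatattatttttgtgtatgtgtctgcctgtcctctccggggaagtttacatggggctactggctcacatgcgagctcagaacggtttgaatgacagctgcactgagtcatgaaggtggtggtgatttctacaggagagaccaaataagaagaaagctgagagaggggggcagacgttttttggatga
The Gsn sequence is chr3:39008682-39008931 (plus strand), that of Dnajb2 chr9:84179518-84179767 (plus), that of Ppp4c chr1:190830014-190830263 (minus), that of Myo9a chr8:69044764-69045013 (plus), that of Gabrb2 chr10:27439543-27439792 (plus) and that of Lrrtm4 chr4:114104380-114104629 (plus). Guanine and cytosine made up 66.4% of the bases in Gsn, 64.8% in Dnajb2, 65.6% in Ppp4c, 75.2% in Myo9a, 43.2% in Gabrb2 and 47.6% in Lrrtm4. The median was 60.4% over the tested transcripts with a symbol that had an entry and 52.0% over all 27457 RefSeq promoters of this length. Gsn held 3 copies of GGGCGG, Dnajb2 4 and Myo9a 3. Dnajb2 also held 2 of TGACG and Myo9a 1, whereas Ppp4c, Gabrb2 and Lrrtm4 held none of the 3 motifs. Among these 6 examples, both directions included promoters with several GC boxes and promoters with none. Of all genes called by edgeR with an entry, 5 of 6 higher and 2 of 6 lower held GGGCGG. Their median share of guanine and cytosine was 66.0% and 48.2%. In the larger sets called by DESeq2 the directions lay closer together. There 169 of 274 higher (61.7%) and 56 of 99 lower (56.6%) held GGGCGG, with medians of 61.0% and 58.8%. Of the promoters of tested transcripts with a symbol, 62.2% had GGGCGG, 30.5% TGACG and 7.33% TATAAA, and of all RefSeq promoters 32.4%, 19.0% and 13.1%. Fewer than 80% of the higher called genes (6 of 8) and of the transcripts called lower by DESeq2 (99 of 130) had an entry, so no difference between the directions was tested.

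Of the 15 called transcripts without a symbol, 13 were lower. ENSRNOT00000071231 and ENSRNOT00000072709 had the largest falls, with log2 fold changes of -3.20 ± 0.48 and -3.14 ± 0.34 (adjusted p = 0.0330 and 0.00750 with edgeR). ENSRNOT00000068149 and ENSRNOT00000000052 had the largest rises, of 1.95 ± 0.30 and 1.71 ± 0.26 (adjusted p = 0.0402 and 0.0330 with edgeR). The 8 lower transcripts with a mean over 500 CPM had fold changes between -3.20 and -3.02, and 7 of them had nearly the same ratio within each pair, from -3.86 to -3.62 in pair 1, -2.96 to -2.63 in pair 3, -2.82 to -2.49 in pair 4 and -3.19 to -2.97 in pair 5. These transcripts may share reads, so they are uncertain as separate results. Together the 8 took 4.36% of the counts in Sham 1 and 0.569% in FT 1, 0.897% and 0.195% in pair 3, 0.963% and 0.161% in pair 4, and 1.02% and 0.111% in pair 5. In NAcSh their log2 fold changes were -3.64 to -2.34, with 0 of 8 called by edgeR and 8 of 8 by DESeq2.

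The second question was which cell types and pathways these changes touched. Some genes stand in several lists, such as Ppp1r1b, DRD2, Adora2a, PENK, Scn4b, Sirt2 and Slc6a11, so the counts of different lists are not separate results. Genes of oligodendrocytes were the largest marker group. Of 49 symbols listed, 22 were tested, and 19 had a positive fold change, with a median of 0.91 on the log2 scale, where the median was 0.26 over all 1821 tested transcripts with a symbol and 0.03 over all transcripts. Myrf and Gsn were called higher by edgeR, as 0.439% of the transcripts with a symbol were, and none was called lower. DESeq2 called 13 of the 22 higher (59.1%), where it called 18.4% of the transcripts with a symbol higher and 7.14% lower, the shares against which the counts of all lists below are to be read. Pllp, a myelin membrane protein, went from 136, 113, 21.3 and 31.4 CPM in Sham to 194, 216, 65.7 and 94.2 CPM in FT (log2 fold change 1.16 ± 0.27, adjusted p = 0.145 with edgeR and 0.00678 with DESeq2). Apod, which encodes apolipoprotein D, was at 1005, 518, 653 and 446 CPM in Sham and at 1480.4, 1359.9, 992 and 1172 CPM in FT (0.99 ± 0.32, adjusted p = 0.196 with edgeR and 0.0182 with DESeq2). The protease gene Klk6 (0.83 ± 0.24) and the deacetylase gene Sirt2 (1.31 ± 0.41) were called higher by DESeq2 alone (adjusted p = 0.0447 and 0.0376), although Sirt2 went from 35.1 to 31.8 CPM in pair 5. The genes of the major myelin proteins Mbp, Mog and Mag have no identifier in the table of symbols and were not analysed here.

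The oligodendrocyte genes did not move evenly over the pairs. The median log2 ratio of the 22 was 0.30 in pair 1, 0.65 in pair 3, 1.01 in pair 4 and 1.50 in pair 5, with 16, 15, 21 and 20 members above 0. In pairs 4 and 5 nearly the whole list had ratios above 0. In pairs 1 and 3, Ermn, Ugt8, Tspan2, Aspa and Car2 had ratios below 0 while Myrf, Gsn, Pllp and Sirt2 had ratios above 0. Their summed level was 1714 to 3751 CPM in Sham and 3687 to 4887 CPM in FT. The progenitor genes Tnr and Erbb3 had log2 fold changes of -0.71 ± 0.25 and -1.04 ± 0.39 that neither tool called.

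**Figure D3:**
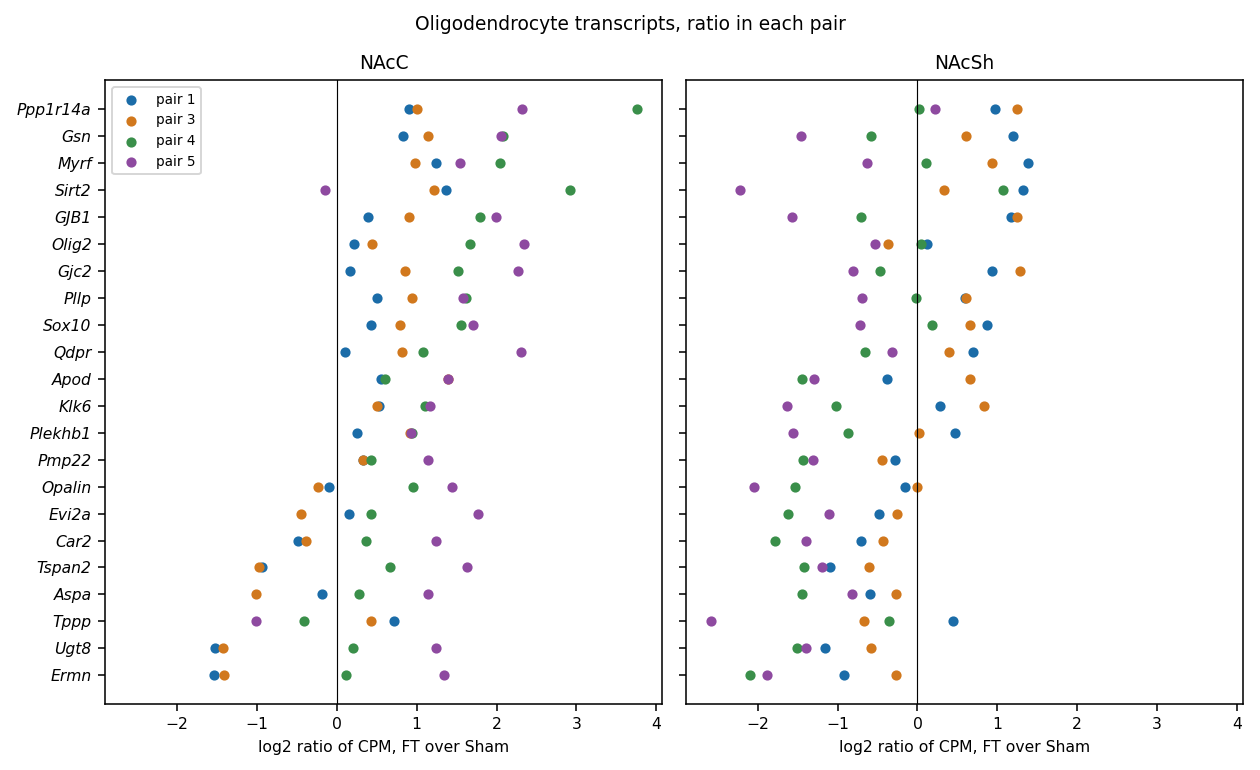
Log2 ratio of FT to Sham CPM for each of the 22 oligodendrocyte transcripts (rows) in pairs 1, 3, 4 and 5 (colours), in NAcC on the left and NAcSh on the right. In NAcC most points of pairs 4 and 5 lie above 0, whereas in NAcSh most points of these pairs lie below 0.

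Of 5 astrocyte genes, edgeR called 0 and DESeq2 1, the GABA transporter gene Slc6a11 (log2 fold change -1.38 ± 0.45, adjusted p = 0.0676 with DESeq2), and the median was -0.35. The lipid carrier gene Apoe, which astrocytes make, stood at 855, 10034, 191 and 147 CPM in Sham and at 865, 22068, 307 and 325 CPM in FT, so that pair 3 was far above the others in both groups. This also set the summed level of the astrocyte genes, at 454 to 10302 CPM in Sham and 574 to 22281 CPM in FT. Of 4 microglial genes, DESeq2 called the complement gene C1qa higher (0.82 ± 0.25, adjusted p = 0.0783 with DESeq2) and edgeR none. Their summed level was 82.7 to 149 CPM in Sham and 115 to 160 CPM in FT. The parts of astrocytes and microglia in the other results were not tested.

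Of 7 tested markers of medium spiny neurons, 6 were higher in FT within each pair, as 29.1% of the transcripts with a symbol were. DESeq2 called these 6 higher (85.7%), and edgeR called 0 of 7. Rasd2 went from 208, 224, 104 and 159.9 CPM in Sham to 507, 582, 201 and 211 CPM in FT (log2 fold change 1.01 ± 0.28, adjusted p = 0.169 with edgeR and 0.00891 with DESeq2). Ppp1r1b was at 607, 516, 209.6 and 133 CPM in Sham and at 1017, 1599, 293 and 271 CPM in FT (0.97 ± 0.31, adjusted p = 0.0214 with DESeq2). PENK was at 1215, 1415, 396 and 702 CPM in Sham and at 2909, 4562, 733 and 745 CPM in FT (0.98 ± 0.36, adjusted p = 0.0348 with DESeq2), and it was nearly level in pair 5. In each of these 3 genes pairs 1 and 3 were high in both groups, and the groups overlapped. DRD2 (0.80 ± 0.26), Adora2a (0.77 ± 0.26) and Scn4b (0.83 ± 0.25) were called higher by DESeq2 too, with adjusted p of 0.0664, 0.0577 and 0.0348. DRD2, Adora2a and PENK mark the D2 receptor class of these neurons. The D1 class could not be compared, because Drd1, Pdyn and Tac1 have no identifier here. Dgkb, a diacylglycerol kinase gene, was below Sham in each pair (-0.56 ± 0.28) and was not called. The summed level of the 7 genes was 1376 to 2773 CPM in Sham and 1820 to 7560 CPM in FT.

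Of 7 tested genes of GABA signalling, 6 had a negative fold change and the median was -1.22. Gabrb2 was called by edgeR, as 0.384% of the transcripts with a symbol were called lower, and DESeq2 called 4 lower (57.1%, against 7.14%). Beside Gabrb2 and Slc6a11 these were the GABA-A receptor subunit genes Gabrg1 and Gabra3. Gabrg1 was at 21.9, 25.6, 27.0 and 22.9 CPM in Sham and at 5.82, 18.4, 10.3 and 11.3 CPM in FT, with every FT pool below every Sham pool (log2 fold change -1.22 ± 0.29, adjusted p = 0.150 with edgeR and 0.0128 with DESeq2). Gabra3 was at 1.53, 9.19, 9.85 and 9.49 CPM in Sham and at 0.186, 5.36, 4.89 and 2.53 CPM in FT (-1.55 ± 0.41, adjusted p = 0.0211 with DESeq2). Gad2, which encodes a GABA-synthesizing enzyme, had a fold change of -0.23 ± 0.23 and the subunit gene Gabrb1 one of -0.26 ± 0.25, and neither was called. Htr2c has no identifier here, and no gene of the serotonin list passed the filter.

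Of 10 genes of vesicle release, 7 were negative (median -0.59). Their median ratio was -0.06 in pair 1, 0.31 in pair 3, -0.77 in pair 4 and -1.32 in pair 5, with 5, 7, 2 and 1 members above 0, so that the negative values lay mainly in pairs 4 and 5. edgeR called Napb, and DESeq2 also called Syt4 and Cds2 lower and Rab3a higher, in all 30.0% lower and 10.0% higher (against 7.14% and 18.4%). Cds2 did not fall in pair 3, at 34.8 CPM in Sham and 38.0 CPM in FT. Syt4, a synaptotagmin gene, was at 277, 189, 247 and 233 CPM in Sham and at 134, 77.8, 150.5 and 143 CPM in FT, without overlap (log2 fold change -0.93 ± 0.26, adjusted p = 0.169 with edgeR and 0.00975 with DESeq2). Syp, the synaptophysin gene, was higher in pairs 1 and 3 and lower in pairs 4 and 5 (0.17 ± 0.35), and neither tool called it.

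Of 19 voltage-gated and potassium channel genes, 12 were negative (median -0.54), with 6 called lower (31.6%, against 7.14% of the transcripts with a symbol) and 2 called higher (10.5%, against 18.4%) by DESeq2 and 0 by edgeR. Their median ratio was -0.59 in pair 1, 0.12 in pair 3, -0.34 in pair 4 and -0.91 in pair 5. Kcnj3, a subunit of potassium channels opened by G proteins, was at 5.34, 6.56, 8.56 and 13.7 CPM in Sham and at 1.36, 4.08, 3.22 and 4.08 CPM in FT, without overlap (-1.51 ± 0.35, adjusted p = 0.145 with edgeR and 0.00703 with DESeq2). The calcium channel subunit gene Cacnb4 fell too with DESeq2 (-0.94 ± 0.23, adjusted p = 0.00821). Of 8 glutamate signalling genes, DESeq2 called 1, the vesicular glutamate transporter gene Slc17a6, lower (-1.40 ± 0.29, adjusted p = 0.129 with edgeR and 0.00395 with DESeq2). It was at 12.3, 9.19, 29.1 and 23.9 CPM in Sham and at 3.28, 3.06, 11.7 and 12.7 CPM in FT.

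Genes of peptides and clock outputs were among those called higher by DESeq2 alone. Sst, the gene of the interneuron peptide somatostatin, was at 80.9, 513, 21.5 and 57.8 CPM in Sham and at 235, 1224, 61.1 and 83.5 CPM in FT (1.21 ± 0.29, adjusted p = 0.145 with edgeR and 0.00089 with DESeq2). Of 4 clock output genes DESeq2 called 3 higher, namely Cirbp, which encodes a cold-inducible RNA-binding protein (1.32 ± 0.35, adjusted p = 0.0172), and the transcription factor genes Dbp (1.02 ± 0.31, adjusted p = 0.0473) and Tef (0.81 ± 0.29, adjusted p = 0.0718). In Cirbp every FT pool, at 96.4 to 434 CPM, lay above every Sham pool, at 43.8 to 91.6 CPM. The remaining member of this list, Rora, had a negative fold change (-0.91 ± 0.37) and was called by neither tool. Of 4 genes in the list of immediate early and neurotrophin genes, which also holds the mineralocorticoid receptor gene Nr3c2, none was called by either tool. Among chromatin regulators, DESeq2 called 4 of 14 higher (28.6%, against 18.4%) and 1 lower (7.14%, the same share as over the transcripts with a symbol), and their median ratio was positive in pairs 1, 3 and 4 and -0.34 in pair 5. Trim28, a co-repressor that recruits histone methylation, was at 99.4, 69.6, 103 and 111 CPM in Sham and at 164, 144, 160.1 and 151 CPM in FT, without overlap (0.71 ± 0.24, adjusted p = 0.203 with edgeR and 0.0611 with DESeq2). The hydroxylase gene Jmjd6 had a fold change of 0.81 ± 0.24 and the deacetylase gene Hdac8 one of -1.01 ± 0.33 (adjusted p = 0.0652 and 0.0793 with DESeq2). The deubiquitinase gene Otub1 was at 314, 257, 170.5 and 448 CPM in Sham and at 1321, 416, 346 and 929 CPM in FT (1.21 ± 0.32, adjusted p = 0.167 with edgeR and 0.00414 with DESeq2).

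Of 32 nuclear genes of oxidative phosphorylation, 23 were positive (median 0.45, against 0.26 over the transcripts with a symbol), with 9 called higher (28.1%, against 18.4%) and 0 lower by DESeq2 and 0 by edgeR. Their median ratio was -0.32 in pair 1, 0.37 in pair 3, 0.49 in pair 4 and 0.83 in pair 5, with 14, 22, 25 and 28 members above 0. The complex I genes Ndufs8 (1.36 ± 0.36, adjusted p = 0.00976 with DESeq2), Ndufv1 (0.99 ± 0.27, adjusted p = 0.00636) and Ndufa7 (0.95 ± 0.27, adjusted p = 0.0267) were among the 9. Ndufs8 was at 229, 231, 17.3 and 138 CPM in Sham and at 505, 392, 122 and 244 CPM in FT. Of 25 mitochondrial ribosomal genes, 22 were positive (median 0.53) and DESeq2 called 6 higher, a share of 24.0% that is close to the 18.4% of the transcripts with a symbol. All 7 tested genes of the mitochondrial genome, a list added after their values were seen, were negative (median -0.97), and DESeq2 called 4 of them lower. MT-CO2 was at 21229, 18442, 12037 and 6338 CPM in Sham and at 4709.9, 8146, 6521 and 5538 CPM in FT (log2 fold change -1.10 ± 0.46, adjusted p = 0.255 with edgeR and 0.0343 with DESeq2). The median ratio of the 7 was -2.15 in pair 1, -1.41 in pair 3, -0.57 in pair 4 and 0.14 in pair 5. The list of oxidative phosphorylation and that of the mitochondrial genome thus had medians of opposite sign in pairs 3 and 4, both negative in pair 1 and both positive in pair 5. Pairs 1 and 3 hold the 3 libraries in which the 50 most counted transcripts took most of the counts, and the part of this in the result was not tested.

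Cytosolic ribosomal genes were spread around 0, with 15 positive and 13 negative (median 0.13), and 4 called higher by DESeq2. Rplp1 and RPLP1, both among the 4, had nearly the same counts, at 91.3 and 88.2 CPM in Sham 1 and 518 and 496 CPM in FT 1, and are uncertain as separate results. Mrpl36 and MRPL36, both among the 6 mitochondrial ribosomal genes called, may share reads too. Of 39 solute carrier genes, DESeq2 called 4 higher, among them the zinc transporter gene Slc39a1 (1.14 ± 0.27), and 5 lower, among them the amino acid transporter gene Slc6a15, at 25.0, 19.0, 82.9 and 83.3 CPM in Sham and 11.9, 6.63, 46.3 and 49.5 CPM in FT. These shares were 10.3% and 12.8%, against 18.4% and 7.14% over all transcripts with a symbol.

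**Figure D4:**
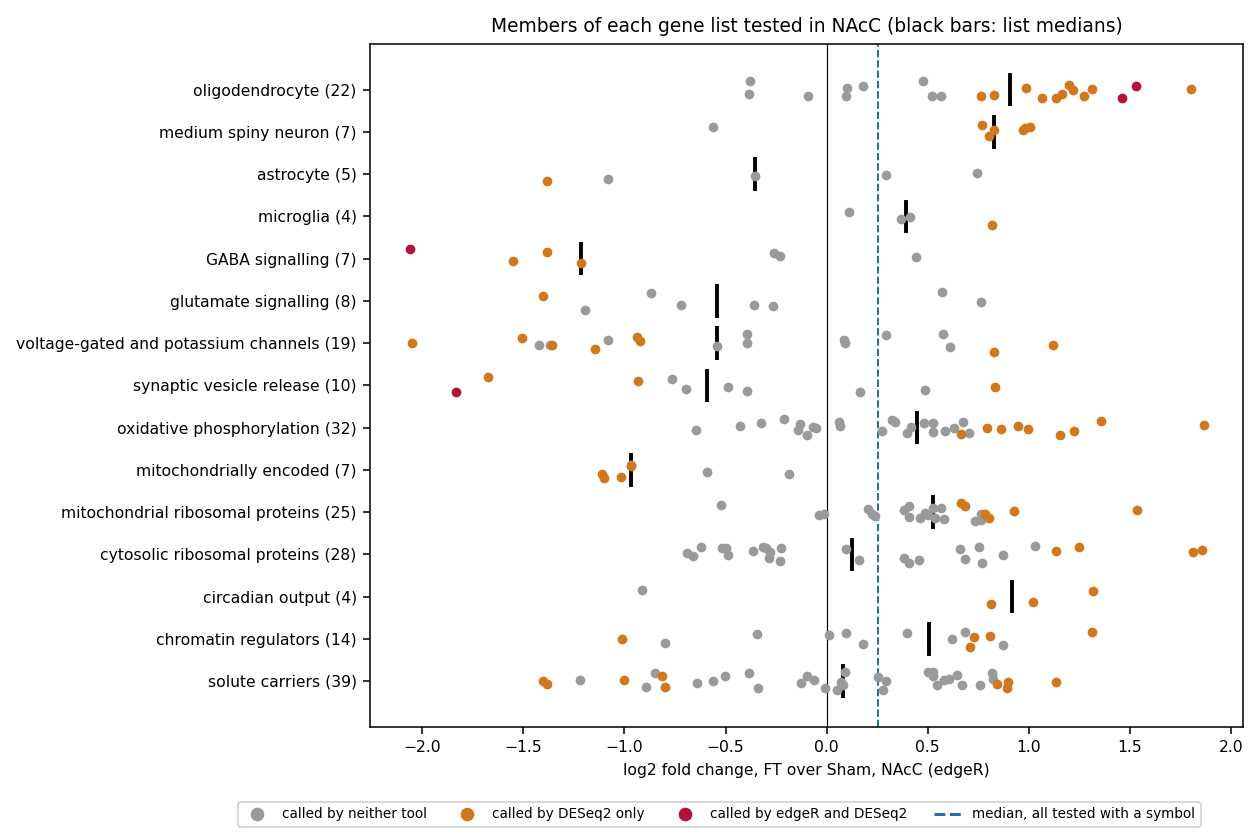
Log2 fold change of FT over Sham in NAcC (x axis, edgeR) for every tested member of 15 gene lists (rows, number tested in brackets); grey points were called by neither tool, orange by DESeq2 only and dark red by both. Black bars are list medians and the dashed line is the median of all tested transcripts with a symbol, 0.26; the oligodendrocyte median of 0.91 lies to its right and the GABA signalling median of -1.22 to its left.

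The remaining lists held few tested genes, and edgeR called none of them apart from Napb and Gabrb2 in the list of 18 genes that the study names (median 0.02), of which DESeq2 called 4 higher and 5 lower. Of 5 dopamine signalling genes (median 0.75) DESeq2 called 3 higher and 1 lower. The higher ones include DRD2 and Ppp1r1b, already counted as markers of medium spiny neurons. The list of opioid, cannabinoid and peptide signalling held 7 tested genes (median 0.42), among them the non-peptide receptor genes Adora2a and Chrm1. DESeq2 called 3 of the 7 higher, namely Sst, Adora2a and PENK, all named above, and 2 lower, Chrm1 and Tacr3. Among markers of other cells, DESeq2 called 1 of 6 striatal interneuron genes higher and 1 lower (median -0.35), 1 of 3 cortical excitatory neuron genes higher (median 0.28), and 1 of 2 septal, pallidal and hypothalamic genes higher and the other lower (median 0.32). The vascular gene tested, at -1.20, and both blood genes (median -0.18) were called by neither tool.

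Beyond the lists, DESeq2 called further transcripts that edgeR did not and that moved the same way in 4 of 4 pairs. Those with the smallest edgeR p and a higher level in FT were Hs6st1, a sulfotransferase of heparan sulfate (1.31 ± 0.25), the troponin gene Tnni3 (1.81 ± 0.36), the proteoglycan gene Sdc4 (1.15 ± 0.23), the GTPase regulator gene Arhgdia (1.31 ± 0.26) and the platelet glycoprotein gene Gp1bb (1.43 ± 0.29), with edgeR adjusted p of 0.109 to 0.116. Those with a lower level were Sh3bgrl (-1.22 ± 0.25), Pter (-1.36 ± 0.28), Slc17a6, the neuronal RNA-binding protein gene Elavl2 (-1.17 ± 0.25), the nuclear import gene Tnpo1 (-1.62 ± 0.36) and the zinc finger gene Plag1 (-1.21 ± 0.27), with edgeR adjusted p of 0.113 to 0.141. The groups did not overlap in Gp1bb, Sh3bgrl, Pter, Elavl2 and Tnpo1. Sh3bgrl, for instance, was at 40.1 to 78.1 CPM in Sham and at 21.3 to 31.5 CPM in FT.

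The third question was whether the response of the core differed from that of the shell. A test of the difference between both responses over 16 libraries called 0 of 14315 transcripts with edgeR (0.0%), where 536 (3.74%) had an unadjusted p under 0.05. DESeq2 called 14 (0.0978%). A fit in which both regions shared a treatment effect for each replicate number called 9, with 1683 at an unadjusted p under 0.05. It kept the core and shell pairs of a number together. The test above and the differences given below take these pairs as independent. In NAcSh alone, edgeR called 2 of 13416 transcripts and DESeq2 948.

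Among the genes with the smallest p in this test, Id3, an inhibitor of helix-loop-helix transcription factors, was at 17.0, 24.9, 7.05 and 7.37 CPM in NAcC Sham and at 29.7, 46.2, 20.8 and 18.9 CPM in NAcC FT, a change of 1.15 ± 0.26 on the log2 scale. In NAcSh its change was -0.67 ± 0.23. It was higher in 4 of 4 core pairs and lower in 4 of 4 shell pairs, and the difference was 1.84 ± 0.32 (adjusted p = 0.726 with edgeR and 0.00044 with DESeq2). Cd9, a tetraspanin gene also expressed in glia, had a difference of 1.75 ± 0.36 (adjusted p = 0.726 with edgeR and 0.00523 with DESeq2), and SYT17, a synaptotagmin gene, one of -2.10 ± 0.48 (adjusted p = 0.846 with edgeR and 0.0594 with DESeq2). Ttr, which encodes transthyretin of the choroid plexus, was at 4.64, 3.94, 3.01 and 1.80 CPM in NAcC Sham and at 7.18, 2.55, 41.5 and 26.3 CPM in NAcC FT, so that FT was far above Sham in pairs 4 and 5 alone. In NAcSh its mean was 70.9 CPM in Sham and 8.50 CPM in FT, and the difference of the responses was 5.07 ± 1.00 (adjusted p = 0.726 with edgeR and 0.0594 with DESeq2). NAcC Sham had the lowest Ttr median of the 25 regions. Kcnj13, the other choroid plexus marker tested, had a fold change of -0.54 ± 0.56 in NAcC.

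For the oligodendrocyte genes, the estimated difference, core minus shell, was positive in 22 of 22, with a median of 1.17, where 50.9% of the transcripts with a symbol were positive. It had an unadjusted p under 0.05 in 13 of 22 (5.57% of the transcripts with a symbol) and passed the adjusted threshold in none with edgeR. In NAcSh the median ratio of these genes was 0.36 in pair 1, 0.18 in pair 3, -0.79 in pair 4 and -1.30 in pair 5, so core and shell had medians of opposite sign in pairs 4 and 5. The markers of medium spiny neurons had a similar split in NAcSh, with medians of 0.82, 0.76, -0.47 and -0.64, and differences of 0.07 to 0.88 on the log2 scale that were all positive, of which 1 had an unadjusted p under 0.05. Among called genes, Lrrtm4 had a fold change of -0.14 ± 0.30 in NAcSh (difference -1.89 ± 0.43, adjusted p = 0.846 with edgeR), and Gabrb2 one of -1.20 ± 0.33 with lower values in 4 of 4 shell pairs (difference -0.87 ± 0.45, adjusted p = 1.00 with edgeR).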

How the data were processed

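The authors deposited, for each sample, raw read counts per Ensembl transcript. The submitters' processing notes name FastQC, STAR, HTSeq and the genome build rn5. Reads were paired-end of 76 bp from a stranded total RNA kit, while the molecule label is polyA RNA. The strand setting of the counting is not given in the sources used here, so overlapping antisense genes may share reads. The raw reads of FT replicate 1 are stated as corrupted, and its deposited counts were used.

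The 5 summary lines of each table were dropped, which left 29188 transcripts; reads without a feature made up 21.9% to 48.6% of the reads listed. Symbols came from the study's list of identifiers. edgeR 4.0.16 (R 4.3.3) was run with TMM factors and filterByExpr (minimum count 10, minimum total 15). Its quasi-likelihood test took the replicate number as a block, with Benjamini-Hochberg adjustment over all transcripts tested. A transcript was called at an adjusted p of at most 0.1 and a change of at least 0.32 on the log2 scale. The SE is the log2 fold change over the square root of F. CPM use TMM library sizes, except in the medians and ranks over the 25 regions, which use total counts without TMM factors. DESeq2 1.42.0, no block, RLE factors, no filter, an adjusted p of 0.05 and sets of replicates were alternatives. The study's methods state that the Sham and FT samples of a number were handled together. Deviations from group means correlated at r = 0.47 to 0.76 within numbers, with a median of -0.37 between numbers. Deviations from a mean cancel out within each group. Positive values within numbers therefore bring negative ones between numbers, and the second value adds no evidence of its own. With the block, p-values measure how the difference between FT and Sham pools varied between pairs, and not the spread between animals. The fits were tested on a single run of simulated counts drawn from edgeR's own fit. There the share of unchanged transcripts among the calls was under the threshold in edgeR and above it in DESeq2.

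Genes named were all called transcripts with a symbol, the 2 largest rises and falls without one, the 6 higher and 6 lower with the smallest edgeR p that DESeq2 alone called with 4 of 4 pairs alike, the leading members of each list, genes chosen beforehand by name, and the 4 with the smallest core against shell p. Of these, the text gives those its results turn on, and some items are not reported here. Members and lists were chosen with earlier results of these data known. Pseudogenes and the kinase Rps6ka4 were left out of the ribosomal list. Promoters are from RefSeq (GRCr8), matched by gene, for 80.1% of the tested transcripts with a symbol. Tables were made with Python 3.11.15.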

Additional observations from a re-analysis of the deposited data

Results flagged for a closer look

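Within groups of 4 pools, 222 sets of values were examined for a pool far from the other 3, and 27 had one. The cut-off is one that about 1 in 20 sets of independent, normally distributed values would pass. CPM of genes from the same pools are not independent, so the 27 cannot be set against that rate. Of the 27, 23 were pools of replicate 3, and 7 genes stood apart in replicate 3 of both groups. These were Sst (512.5 CPM in Sham and 1224 in FT), Apoe (10034 and 22068), Cox6a1 (2045.6 and 5239), Rplp1 (1798 and 4453), RPLP1 (1695.8 and 4168), Rpl36 (805.3 and 942.6) and Cds2 (34.78 and 38.00).

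In FT replicate 3 alone, the 50 most counted transcripts took 62.4% of the counts, far from the other FT pools. ENSRNOT00000071231 was at 480.8 CPM, Slc6a11 at 9.18, Kcnj10 at 4.34, Hbb at 821 and MT-CO3 at 17631 CPM in that pool. In Sham replicate 3 alone, Selplg was at 4.59, Tacr3 at 5.25 and Mrpl34 at 52.5 CPM. In replicate 1, Sh3bgrl stood apart in FT at 31.5 CPM, and Gabra3 at 1.53, Cirbp at 43.8 and Dbp at 163.7 CPM in Sham.

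For 3 genes every core pair moved one way and every shell pair the opposite way. The difference of the responses, core minus shell, was 1.84 for Id3, 1.75 for Cd9 and -2.10 for SYT17 on the log2 scale, with edgeR adjusted p of 0.726, 0.726 and 0.846.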

How the results depend on the processing

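With the replicate block, edgeR called 30 transcripts in NAcC (10 higher, 20 lower). Without the block, edgeR and DESeq2 each called 0, in each direction too. An adjusted p of at most 0.05 left 12 (2 and 10), RLE factors 28, and no filter on low counts gave 890 (451 and 439). DESeq2 with the block called 924 (520 and 404). Leaving out 1 pair gave 0 to 80 in edgeR (0 to 50 higher, 0 to 30 lower), namely 80 without replicate 1, 19 without 3, 0 without 4 and 7 without 5. In DESeq2, an alternative chosen after seeing the data, as was DESeq2 without the block, it gave 245 without replicate 1 (175 higher, 70 lower), 234 without 3 (152 and 82), 271 without 4 (57 and 214) and 1914 without 5 (966 and 948). Replicates 1 and 3 alone gave 3596 of 11834 transcripts tested (1590 and 2006). Replicates 4 and 5 alone gave 507 of 13941 (301 and 206). Each held 29 of the 30. The 30 were chosen on these same pairs and moved alike in all of them, so this overlap is not independent evidence. The cause of the differing counts was not tested.

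The core against shell test called 0, but 14 with DESeq2, 9 with a replicate block that shared a treatment effect for each number, and 31 without the filter.

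Of the 107 genes followed, 19 were called by edgeR, and all 19 lost their call without the block. The call was lost by 2 of them without replicate 1, 14 without 3, 18 without 4 and 16 without 5. Lrrtm4 was not among those tested without 4 or without 5, so every called gene tested without replicate 4 lost its call. The sign of the log2 fold change turned for Kit with replicates 1 and 3 alone (0.24), for Lamp5 (-0.031), Hbb (0.071) and MT-ND4L (0.049) with 4 and 5 alone, and for Cx3cr1 without the block (-0.038) and with 4 and 5 alone (-0.29). It turned for Selplg (-1.01) and Syp (-0.39) with 4 and 5 alone, and for Slc30a3 without the block (0.18), without the filter (0.012) and with 1 and 3 alone (0.35). Leaving out 1 pair gave -0.18 to 0.87 for Cx3cr1, -0.16 to 0.80 for Selplg, -0.23 to 0.24 for Slc30a3, -0.25 to 0.0055 for Hbb-b1 and -0.086 to 0.42 for Syp. None of these genes was called. Pools with few reads, as for Lrrtm4 and Gabrb2 in replicates 1 and 3, limit the precision of single ratios.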
